A study of Homo sapiens with 6 samples.

Results

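The guanylate-binding protein (GBP) genes GBP1 to GBP7 lie side by side on chromosome 1, and this locus held 1 of the densest groups of JMJD6 binding sites in CHP-134 neuroblastoma cells. The locus was taken as the 7 genes together with every common peak of JMJD6 or N-Myc between 89 and 90 Mb of chromosome 1 (GRCh37), and it was selected on the number of JMJD6 peaks in that bin of 1 Mb. It held 24 of the 561 JMJD6 peaks of the series and 18 of the 10172 N-Myc peaks, which together made 31 distinct peaks. These numbers are the basis of the choice and are given as a description.

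The series is ChIP-seq, the sequencing of DNA pulled down with an antibody, in CHP-134, an established human neuroblastoma cell line. There were 3 replicates of an N-Myc antibody on chromatin fixed with formaldehyde and 3 replicates of a JMJD6 antibody on chromatin fixed with disuccinimidyl glutarate and then formaldehyde. The names of the lists carry the tag NT, which the paper sets against DOX, for doxycycline, in its RNA polymerase II samples. No other mention of a treatment is given in the labels or the lists, and all samples are of this 1 line. A common peak is an interval found in all 3 replicates of a protein. The lists hold positions alone and neither heights nor scores nor reads. Depth is therefore unknown for every peak, no spread between replicates could be computed, and no test was made. A difference between the JMJD6 and N-Myc lists cannot be told apart from a difference in cross-linking.

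GBPs are large GTPases that interferon, above all interferon gamma, induces in most cell types. They assemble on the membranes of intracellular pathogens and on vacuoles, and GBP1, GBP2 and GBP5 carry a lipid anchor added by prenylation. Their genes arose by duplication and resemble each other in sequence. Interferon gamma acts through a receptor coupled to JAK kinases, and the transcription factors switched on in this way bind a gamma-activated site and an interferon-stimulated response element (ISRE) in the promoters of their targets. N-Myc, the product of MYCN, binds DNA together with MAX at the E-box CACGTG, and JMJD6 is a jumonji domain protein with reported roles in histone demethylation and splicing.

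The sequences below show where the letters CACGTG stand in 3 peaks of the locus, 1 shared and 2 of N-Myc alone, since that is the site N-Myc is best known to bind. They are taken from the GRCh37 plus strand, written 5′ to 3′, with the E-box in capitals. The peak in an untranslated region of GBP4 is shown in 30 bases and the others in 61.
chr1:89563595-89563655, JMJD6 and N-Myc: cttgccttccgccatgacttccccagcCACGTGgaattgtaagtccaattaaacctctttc
chr1:89650063-89650092, N-Myc only: taaaggcacatgCACGTGtatgtccattgc
chr1:89989871-89989931, N-Myc only: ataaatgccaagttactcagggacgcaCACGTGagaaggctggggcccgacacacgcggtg

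Most of the shared binding lay in AT-rich DNA without that site. As examples, the central 120 bases of the widest shared peak in the first and in the third of 3 blocks of JMJD6 peaks, described further on, are printed here. Any CANNTG, the general form of the E-box, would be in capitals, and these windows hold none. They do not stand for the class in this, since all 11 shared peaks held CANNTG somewhere, 5 of them within 100 bp of the centre.
Centre in the first block, chr1:89560409-89560528, GC content 34.17%: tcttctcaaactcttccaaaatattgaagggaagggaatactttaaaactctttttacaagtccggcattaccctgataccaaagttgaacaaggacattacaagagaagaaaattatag
Centre in the third block, chr1:89676527-89676646, GC content 24.17%: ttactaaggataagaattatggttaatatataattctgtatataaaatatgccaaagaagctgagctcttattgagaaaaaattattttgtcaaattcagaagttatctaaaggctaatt

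The 7 genes spanned 381.4 kb, from GBP3 to GBP6, and 6 of them are on the minus strand. All 24 JMJD6 peaks fell within 128.0 kb of that, from the region between GBP1 and GBP2 to the region upstream of GBP4 (chr1:89559070-89687034). JMJD6 peaks covered 15.02% of this stretch and N-Myc peaks 12.69%. The stretch also held 16 of the 18 N-Myc peaks. On either side the JMJD6 list was empty over long distances: the nearest JMJD6 peak to the left, chr1:77641012-77641436, was 11.92 Mb away and the nearest to the right, chr1:109997191-109997484, was 20.31 Mb away. N-Myc was less isolated, with its nearest peaks outside the bin at chr1:86173835-86174311 and chr1:91966763-91967250, or 3.385 and 1.977 Mb from its first and last peak in it.

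**Figure D1:**
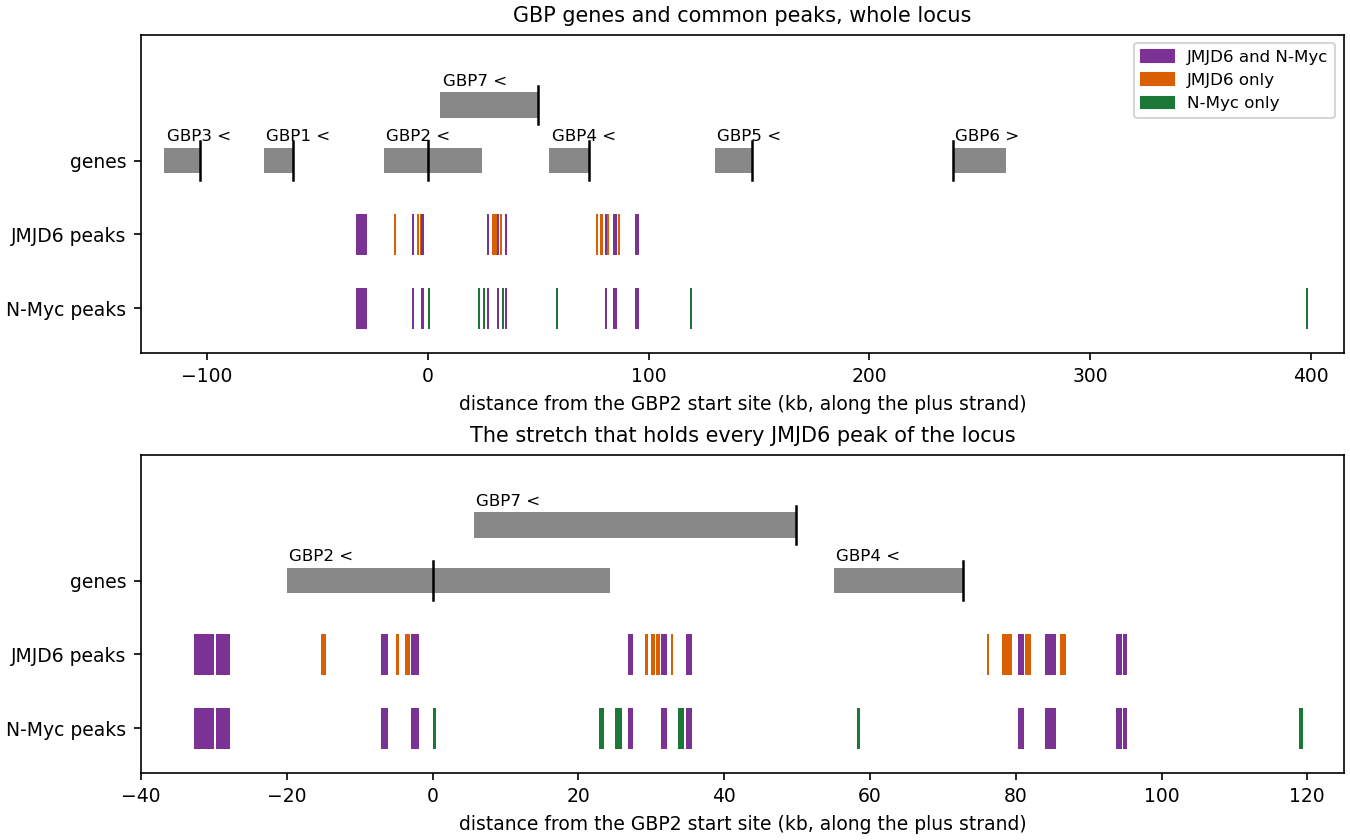
Genes and common peaks of the GBP locus by distance in kb from the GBP2 start site, for the whole locus (top) and for the 128.0 kb that hold all JMJD6 peaks (bottom). Grey bars are gene bodies with the strand beside the name, black ticks are canonical start sites, and coloured bars are peaks found for both proteins or for 1 of them. The 24 JMJD6 peaks sit in 3 blocks around GBP2, in GBP7 and upstream of GBP4, and none lies in GBP1, GBP3, GBP4, GBP5 or GBP6.

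The JMJD6 peaks fell into 3 blocks when a gap of more than 20 kb was taken as a break, a limit set after the positions were seen. The first block ran over 30.85 kb (chr1:89559070-89589917) from the region between GBP1 and GBP2 into GBP2, with 7 JMJD6 peaks, 4 of them shared with N-Myc. The second block lay 28.7 kb further on inside GBP7 and was the most compact, with 9 JMJD6 peaks in 8.736 kb (chr1:89618622-89627357), of which 3 were shared. The third block began 40.47 kb after that, upstream of GBP4, and had 8 JMJD6 peaks over 19.2 kb (chr1:89667831-89687034), of which 4 were shared. JMJD6 peaks covered 27.34%, 43.7% and 36.3% of the 3 blocks in this order. Among the 23 gaps between neighbouring JMJD6 peaks, 13 were under 1 kb, with a median of 819 bp and a range from 69 bp to 40.47 kb. Over the whole JMJD6 list the median gap on a chromosome was 255.2 kb.

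N-Myc peaks overlapped 11 of the 24 JMJD6 peaks of the locus, or 45.83% (exact binomial 95% CI 25.55 to 67.18%), against 43.0% of the whole JMJD6 list. With every peak widened by 500 bp on each side it was 19 of 24, or 79.2%, against 49.2% of the whole list, so the nearness of the shares held only for the intervals as listed. Taken from the other side, the same 11 were 61.11% of the 18 N-Myc peaks (95% CI 35.75 to 82.7%), while 2.37% of the whole N-Myc list overlapped a JMJD6 peak. The intervals cover counting error over listed peaks only, and neighbouring peaks of 1 locus are not independent. Since the locus was chosen for its JMJD6 peaks, nothing is read from the share of N-Myc peaks. The same holds for the widened share, because widening joins close neighbours and the peaks of this locus are dense. The 11 shared peaks had the same start and end in both lists. They were spread over all 3 blocks, while 13 peaks were in the JMJD6 list alone and 7 in the N-Myc list alone.

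GBP2, a prenylated GBP, was the member with N-Myc at its start. Its annotated body (chr1:89571815-89616139, minus strand) held 5 JMJD6 peaks, 4 N-Myc peaks and 2 that were both. The canonical start, the first base of the transcript the annotation takes as representative, is at position 89591797, and an N-Myc peak of 467 bp, chr1:89591858-89592324, began 61 bp upstream of it. The nearest JMJD6 peak, chr1:89588799-89589917, was shared with N-Myc and lay 1880 bp inside the gene. Both proteins were thus listed in the body, and N-Myc alone just upstream of the start. The shared peak chr1:89584748-89585727 overlapped an exon, and the JMJD6 peak chr1:89586817-89587155 overlapped a coding exon. The far end of the annotated body belongs to a transcript with an early stop, which starts inside GBP7. The N-Myc peak at the start and the N-Myc peak chr1:89614682-89615288 are counted in the body through that transcript alone, and the canonical transcript held 2 N-Myc and 5 JMJD6 peaks.

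GBP7 had the most peaks of the 7 genes. Its body (chr1:89597425-89641692, minus strand) held 9 JMJD6 peaks, 6 N-Myc peaks and 3 that were both, which put 3818 bp under JMJD6 and 4887 bp under N-Myc. All 9 JMJD6 peaks belonged to the second block. Its start was free of both, since the nearest JMJD6 peak was 14.33 kb and the nearest N-Myc peak 8.38 kb away. The N-Myc peak chr1:89614682-89615288 overlapped a coding exon of GBP7, and the other peaks in the gene were intronic.

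GBP4, which joins GBP1 on cytosolic bacteria, had 1 N-Myc peak in its body (chr1:89646827-89664625, minus strand). That peak, chr1:89650066-89650426, was 361 bp wide, overlapped an exon in an untranslated region and lay 655 bp from the start of a short transcript with no defined coding sequence. No JMJD6 peak fell in GBP4, although the third block began 3.206 kb upstream of its start with chr1:89667831-89668048, a peak of JMJD6 alone. Of the peaks in that block, 3 overlapped a long non-coding RNA gene that the annotation gives without a symbol (ENSG00000284734).

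GBP1, GBP3, GBP5 and GBP6 held no peak of either protein. GBP1 (chr1:89517565-89531043), the member that starts the coat on bacteria, and GBP3 (chr1:89472362-89488577) lie to the left of the first block. For both genes the peak nearest to the start was the shared peak chr1:89559070-89561867, at 28.18 kb for GBP1 and 70.52 kb for GBP3. GBP5 (chr1:89721872-89738543), the member with a known part in inflammasome assembly, had its nearest JMJD6 peak 51.51 kb and its nearest N-Myc peak 27.33 kb from the start. GBP6 (chr1:89829618-89853719), the 1 member on the plus strand, was the farthest, at 142.6 kb from JMJD6 and 118.4 kb from N-Myc.

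A JMJD6 peak in the gene body was thus present in 2 of 7 members, GBP2 and GBP7, against 1.17% of the 20176 coding genes of the annotation. With N-Myc it was 3 of 7, GBP2, GBP7 and GBP4, against 25.9%. GBP2 and GBP7 overlap each other, and the locus was chosen by its JMJD6 peaks, so these counts are descriptions. Only 3 coding genes had at least the 5 JMJD6 peaks of GBP2, and 2 had at least the 9 of GBP7, GBP7 itself included. The gene most like both in its numbers of peaks was DDX1, an RNA helicase gene near MYCN on chromosome 2, with 3 JMJD6 and 5 N-Myc peaks, a summed difference of 3 from GBP2 and of 7 from GBP7 over the 2 lists. After DDX1 came HDAC9, PALM2AKAP2, BANK1 and CDK6 for GBP7, each with 6 N-Myc peaks and at most 1 of JMJD6, and BTRC, FANCC, HHAT and KIAA1217 for GBP2, each with 3 or 4 N-Myc peaks and 1 or 2 of JMJD6.

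Of the 31 peaks, 19 lay inside a member gene and the others between genes of the family or beyond them. The authors' region lists, which hold promoters within 1 kb of a RefSeq start and enhancers defined from H3K27ac in these cells, took up little of this binding. Only 2 rows named a member. The first was the GBP2 promoter, chr1:89590842-89592842, in the N-Myc list. It held 1 N-Myc peak, which reached from 16 to 482 bp upstream of the centre of the listed promoter, and no JMJD6 peak, the nearest of which was 1925 bp from the centre. Its 2001 bp had a GC content of 40.58% and contained neither CACGTG nor the variant E-box CACGCG, nor the gamma-activated site or the ISRE core defined below.

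The second row was a typical enhancer of 929 bp, chr1:89989369-89990297, assigned to LRRC8B at 629 bp upstream and to GBP6 at 160216 bp downstream of its start. LRRC8B, a subunit of volume-regulated anion channels, is the next coding gene after the family, and its promoter was in the N-Myc list as well. The enhancer held 1 N-Myc peak, chr1:89989493-89990252, and no JMJD6 peak. No member appeared in a JMJD6 list, a list of regions bound by both proteins, or a super-enhancer list. Members with a promoter in the N-Myc list were thus 1 of 7, against 17.5% of 20056 coding genes in RefSeq, and with a promoter in the JMJD6 list 0 of 7, against 0.618%. For typical enhancers 1 of 7 members was named in the N-Myc list, against 31.9% of coding genes, and 0 of 7 in the JMJD6 list, against 0.912%. For super-enhancers it was 0 of 7 in both lists, against 1.32% for N-Myc and 0.0748% for JMJD6. All 24 JMJD6 peaks of the locus therefore lay outside the promoters and enhancers named for a member.

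The peaks of the GBP locus were wide. The median width was 707.5 bp for its JMJD6 peaks, against 435 bp in the whole JMJD6 list, and 800.5 bp for its N-Myc peaks, against 418 bp in the whole N-Myc list. Of the 24 JMJD6 peaks 17 were above the median of their list, and of the 18 N-Myc peaks 17 were. Shared peaks were the widest, with a median of 929 bp and a range from 560 to 2798 bp. JMJD6 peaks without N-Myc had a median of 339 bp (128 to 1419 bp) and N-Myc peaks without JMJD6 a median of 607 bp (361 to 1046 bp). The same order of shared over single peaks held in the whole lists, with medians of 574, 393.5 and 416 bp. All 241 shared peaks of the whole lists, those of the locus included, had the same start and end in both lists, so no separate width is known for each protein. Whether the way these intervals were made widened the shared peaks was not tested, and nothing is read from this order. The shared peak between GBP1 and GBP2, chr1:89559070-89561867, was the widest at 2798 bp. It ranked 5 in both whole lists, which hold it as the same interval.

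**Figure D2:**
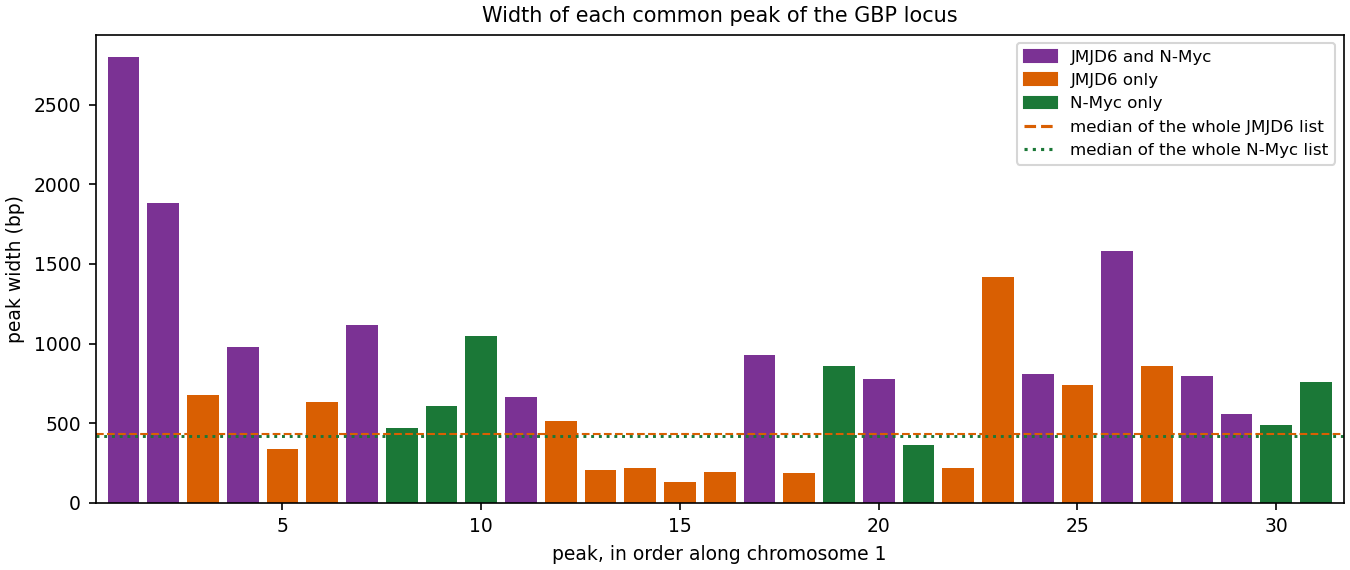
Width in bp of each of the 31 peaks of the GBP locus in their order along chromosome 1, coloured by the list or lists that hold the peak. Lines mark the median width of the whole JMJD6 list (435 bp) and of the whole N-Myc list (418 bp). All 11 shared peaks stand above both lines, and the narrowest bars are JMJD6 peaks of the second block, inside GBP7.

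Within the locus the blocks differed in width. The 7 JMJD6 peaks of the first block were 339 to 2798 bp wide (median 980 bp) and the 8 of the third block 218 to 1578 bp (median 800.5 bp). In the second block, inside GBP7, they were 128 to 929 bp (median 220 bp), and 5 of 9 were under 250 bp. Of the 6 JMJD6 peaks under 250 bp in the locus, 5 were thus in GBP7 and 1 upstream of GBP4, and each was in the JMJD6 list alone. With peaks closer than 1 kb merged, the 24 JMJD6 peaks of the locus became 11.

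The canonical E-box was rare where JMJD6 bound. CACGTG, which reads the same on both strands, was found in 5 of the 18 N-Myc peaks of the locus, or 27.78% (95% CI 9.695 to 53.48%), against 33.4% of the whole N-Myc list. Of the 24 JMJD6 peaks 1 contained it, or 4.167% (95% CI 0.1054 to 21.12%), against 5.53% of the whole JMJD6 list. Over whole peaks both shares are near those of the lists. Around the peak centre the N-Myc share was lower than in its list, but its interval includes the list share, as given below. By class it was 1 of 11 shared peaks, 0 of 13 JMJD6 peaks without N-Myc and 4 of 7 N-Myc peaks without JMJD6. The shared peak with an E-box was chr1:89562147-89564031, between GBP1 and GBP2. The other E-boxes were in GBP7, in GBP4, between GBP4 and GBP5, and in front of LRRC8B.

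Position within the peak set 1 of these apart. Only in chr1:89989493-89990252, the peak in front of LRRC8B, did CACGTG fall within 100 bp of the peak centre, and this peak was also the only one with the variant CACGCG, at 3 places. At 57.5% it had the highest GC content of the 31. A central CACGTG was thus in 1 of 18 N-Myc peaks of the locus, or 5.556%, against 23.55% of the whole N-Myc list. For JMJD6 it was 0 of 24, against 1.604% of the whole JMJD6 list. The general form CANNTG was present in 27 of 31 peaks and in 83.96% and 93.39% of the whole JMJD6 and N-Myc lists.

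Motifs of the interferon response were searched in the same way. The ISRE core was taken as a pair of GAAA words with 2 bases of any kind between them, and the gamma-activated site as TTCNNNGAA, each on either strand. Neither holds an E-box. The ISRE core was present in 6 of the 24 JMJD6 peaks, or 25% (95% CI 9.773 to 46.71%), against 14.4% of the whole JMJD6 list, and in 4 of 18 N-Myc peaks, or 22.22% (95% CI 6.409 to 47.64%), against 5.85% of the whole N-Myc list. Within 100 bp of the peak centre the core was in 2 of 24 JMJD6 peaks, or 8.333%, against 6.952% of the whole JMJD6 list. In that window it was in 0 of 18 N-Myc peaks, against 2.241% of the whole N-Myc list. The higher share in N-Myc peaks was thus seen over whole peaks only. The peaks of the locus were also wider and lower in GC content than those of the lists, and the part of this in the difference was not tested. All 4 N-Myc peaks with the core were shared with JMJD6. The gamma-activated site was present in 8 of the 31 peaks, 3 of them shared, 5 of JMJD6 alone and 0 of N-Myc alone. This was 33.33% of the 24 JMJD6 peaks (95% CI 15.63 to 55.32%), against 19.6% of the whole JMJD6 list, and 16.67% of the 18 N-Myc peaks (95% CI 3.579 to 41.42%), against 12.6% of the whole N-Myc list. Within 100 bp of the centre the gamma-activated site was in 2 of 24 JMJD6 peaks, or 8.333%, against 9.982% of their list. For N-Myc it was there in 0 of 18 peaks, against 5.378%. The widest shared peak contained the ISRE core at 3 places, printed here from the plus strand with the core in capitals because no other peak of the locus had more than 1.
chr1:89559846-89559905: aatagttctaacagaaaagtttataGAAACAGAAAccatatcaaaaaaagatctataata
chr1:89560244-89560303: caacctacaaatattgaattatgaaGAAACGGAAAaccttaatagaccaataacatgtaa
chr1:89560955-89561014: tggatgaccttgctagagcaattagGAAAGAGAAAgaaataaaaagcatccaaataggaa

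Of 5 member promoters with a sequence, 3 carried the ISRE core, and none of the 5 held a peak of either protein. RefSeq promoter sequences (GRCh38.p14, 300 bases, most of them before the start) were matched for GBP1, GBP3, GBP4, GBP6 and GBP7, each of which was found unchanged in GRCh37 at the canonical start. GBP2 and GBP5 had no entry. The core was present in GBP1, GBP3 and GBP4 and not in GBP6 or GBP7, against 3.57% of 35116 promoters. TTCNNNGAA, the form searched for the gamma-activated site, was in GBP3, against 7.66%. A gamma-activated site with other letters would not be counted, so the other promoters are not shown to lack one. CACGTG was in none of the 5, against 7.26% of promoters. The 30 bases around the core are shown for comparison with the sites in the peaks, on the strand of the gene, with the core in capitals and read from the opposite strand.
GBP1, first base of the core at -127 from the start: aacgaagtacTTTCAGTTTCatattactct
GBP3, first base of the core at 2 from the start: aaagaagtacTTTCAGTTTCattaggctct
GBP4, first base of the core at -4 from the start: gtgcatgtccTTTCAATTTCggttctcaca
GBP1 and GBP3 shared 25 of these 30 bases, and GBP4 shared 16 with each. A match of letters is a description and does not show that a factor was bound.

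The peaks of the locus were lower in GC content than most N-Myc peaks, and shared peaks of the whole lists also had a lower median than the N-Myc list. The median GC content of its 18 N-Myc peaks was 35.08%, against 53.18% in the whole N-Myc list, and that of its 24 JMJD6 peaks was 34.46%, against 40.78% in the whole JMJD6 list. Of the 31 peaks, 30 lay below the N-Myc median and 27 below the JMJD6 median. By class the median was 32.94% in shared peaks, 36.58% in JMJD6 peaks without N-Myc and 39.87% in N-Myc peaks without JMJD6. In the whole lists these medians were 39.74%, 42.15% and 53.41% in the same order. The N-Myc peaks of the locus are mostly shared, and those of the whole list mostly not, so the 2 N-Myc medians compare unlike mixes of classes. The surrounding DNA was of similar composition, with 38.55% in the 128.0 kb outside the peaks and 38.68% in the whole bin of 1 Mb.

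Because the genes are copies of each other, it was checked whether reads of 75 bp could be placed. Of the 31 peaks, 30 had at least 90% of their 75-mers present once in GRCh37, and 21 had all of them. The exception was the JMJD6 peak chr1:89620903-89621418 in GBP7, at 84.84%, with a 75-mer found at up to 42 places. None of the repeated 75-mers recurred within the bin, so at this length no stretch of a peak was an exact copy of another part of the family. In the whole lists 431 of 561 JMJD6 peaks and 9776 of 10172 N-Myc peaks reached 90%. Inexact matches were common: 23 of 31 peaks aligned to another place in the member genes, at 63.989 to 92.733% identity, and for 19 the match was longer than 50% of the peak. The closest was the N-Myc peak chr1:89616792-89617837 in GBP7, which matched GBP4 at 92.733% over 688 bp. The widest shared peak matched GBP7 at 63.989% over 2216 bp. Copies of the family and repeats dispersed over the genome were not separated in these matches.

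Shorter words showed how much of each peak is sequence with many exact copies. The share of 20-mers with at least 100 copies in the genome, a measure chosen after the other values were seen, was 30.3 to 65.4% in 8 of the 9 JMJD6 peaks of the second block, inside GBP7. The ninth, the shared peak chr1:89618622-89619288, had none. In the first block the share was at most 11.2% and in the third at most 16.4%, with medians of 0.162% and 0.194%. In both whole lists the median share was 0. By this measure the dense block in GBP7 held the most repeated sequence of the 3. The measure sees exact copies alone, so a low share does not show that a peak is free of repeats whose copies differ. The part of repeated sequence in the number of peaks was not tested.

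**Figure D3:**
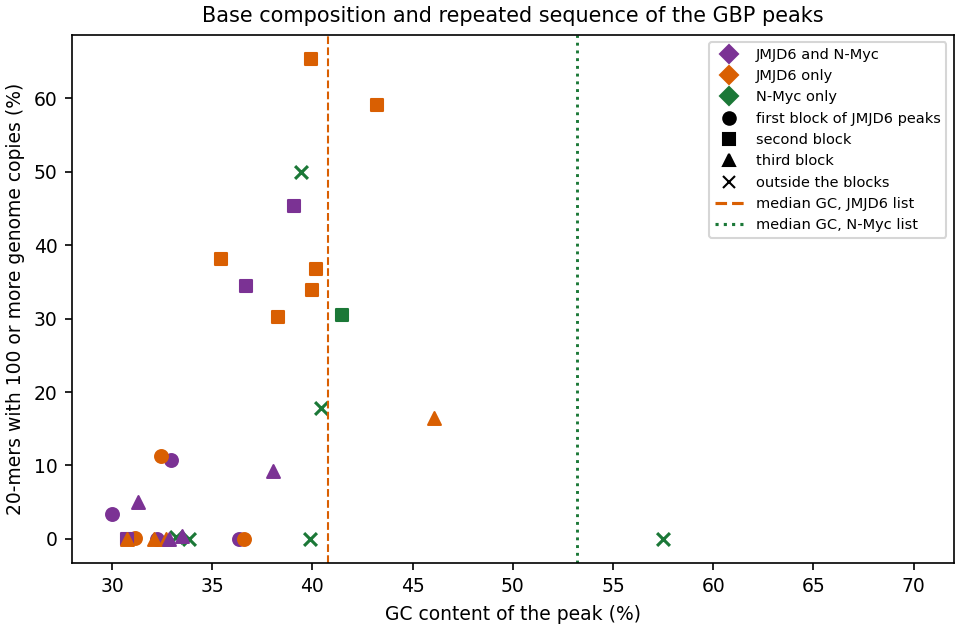
GC content in % (horizontal) against the share of 20-mers with 100 or more genome copies in % (vertical) for each of the 31 peaks of the GBP locus, coloured by list, with the symbol giving the block of JMJD6 peaks. Vertical lines mark the median GC content of the whole JMJD6 list (40.78%) and N-Myc list (53.18%). Of the 9 JMJD6 peaks of the second block 8 lie at 30.3% or higher on the vertical axis, and only the peak in front of LRRC8B, at 57.5% GC, passes the N-Myc median.

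Among the bins of 1 Mb the GBP locus was at rank 3 for JMJD6. Of 284 bins with a JMJD6 peak, with a median of 1 peak, only chromosome 16 between 46 and 47 Mb (40 peaks) and chromosome 2 between 15 and 16 Mb (39 peaks) had more, and the next lower count was 20. For N-Myc the locus was less extreme, with rank 25 of 2342 bins, whose median was 3 peaks. The GBP locus had more JMJD6 than N-Myc peaks, 24 against 18, while the chromosome 16 bin had 40 against 43 and the chromosome 2 bin 39 against 47.

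**Figure D4:**
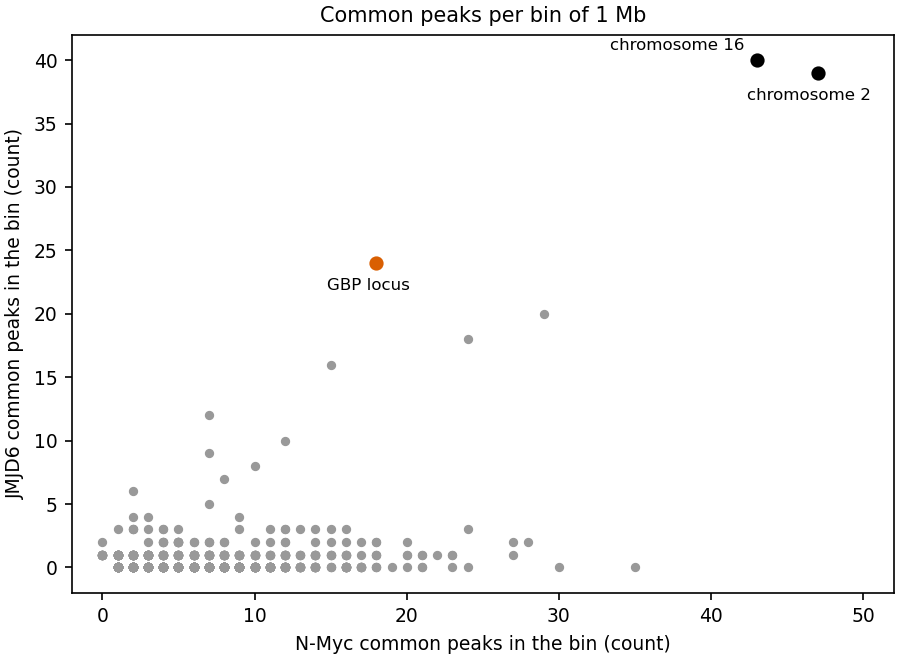
Number of N-Myc peaks (horizontal) and JMJD6 peaks (vertical) in each bin of 1 Mb that holds a peak, with the 3 bins of the highest JMJD6 counts named. The GBP locus, at 18 N-Myc and 24 JMJD6 peaks, stands between the 2 higher bins and the rest, which reach 20 JMJD6 peaks.

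The 3 bins were unlike in what lay under the peaks. On chromosome 16 all 40 JMJD6 peaks were shared, they lay within 49.85 kb, none was fully unique in 75-mers and the median uniqueness was 60.59%. On chromosome 2 the peaks were spread over 996.4 kb, 17 of 39 or 43.6% were shared, and 36 were fully unique. The GBP locus was like the chromosome 2 bin in its shared part (45.8%), width (median 707.5 against 726 bp) and GC content (34.46 against 33.62%). The GBP peaks stood within 128.0 kb, however. Median uniqueness was 100% in both. Of the 24 GBP peaks of JMJD6, 16 were fully unique, a share near that of the whole JMJD6 list (368 of 561). On chromosome 2 the share was higher, at 36 of 39. CHP-134 carries extra copies of MYCN, and copy number over these bins was not analysed here, so its part in the numbers of peaks was not tested. These are descriptions of 1 locus each, with no test.

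The genes around the family and in its pathway were looked up in the same lists. Of the 10 flanking genes only LRRC8B was listed, with an N-Myc promoter and the enhancer named above. PKN2, GTF2B, KYAT3 and RBMXL1 on the GBP3 side, and the pseudogene GBP1P1, LRRC8C, LRRC8D, ZNF326 and ZNF644 on the GBP6 side, had no listed region and no peak of either protein in the gene. Of 16 genes of interferon gamma signalling, 3 had a promoter in the N-Myc list: JAK1, the kinase on the receptor, STAT3, a transcription factor that cytokine receptors activate, and IRF9, an interferon regulatory factor. Against the 17.5% of all coding genes given above, 3 of 16 is near the background, with few genes counted. The receptor genes IFNGR1 and IFNGR2 and the regulators IRF1 and IRF8 were in none of the lists.

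Of 10 interferon-induced GTPases and relatives, 3 had an N-Myc promoter, namely ATL1, a membrane-fusing atlastin related to GBPs, and IRGM and IRGQ, of the immunity-related GTPase family, and 3 were named for an enhancer. The 6 genes of prenylation had 3 N-Myc promoters, FNTA, PGGT1B and ZMPSTE24, and 4 were named for an enhancer. FNTA encodes the subunit that both prenyltransferases share, PGGT1B completes the enzyme that adds the longer lipid, and ZMPSTE24 is a protease that trims prenylated proteins. Among 13 partners of GBPs in inflammasomes and cell-autonomous defence 1 had an N-Myc promoter, PIM1, a kinase that phosphorylates GBP1, and 2 were named for an enhancer. Against 17.5% of coding genes for N-Myc promoters and 31.9% for typical enhancers, the GTPases were near the background for enhancers and above it for promoters, the prenylation genes were above it for both, and the partners were below it for both, in lists of 6 to 13 genes with no test. None of these genes was in a JMJD6 list, a list of both proteins or a super-enhancer list.

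The labelled cell line could be checked against its markers only by binding, since the lists record no expression. Of 10 markers of adrenergic neuroblastoma, 7 were named for a typical N-Myc enhancer, while DBH was in no promoter, enhancer or super-enhancer list. Of 8 markers of other cell types 2 were named for a typical enhancer, PTPRC and COL1A1, and 0 for a promoter or super-enhancer. Neither set had a gene in a JMJD6 list.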

How the data were processed

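BWA was the authors' aligner, SAMtools and bedtools served for handling, and peaks were called per replicate against input with MACS2 2.1.1.20160309 (default settings, q-value below 0.05). The deposited lists hold positions in bp of peaks common to the 3 replicates and of promoters (1 kb on each side of RefSeq starts) and ROSE enhancers (H3K27ac, stitched within 12.5 kb, nearest genes by GREAT), pooled per protein, with no count, score or depth per sample. The build was checked as GRCh37: 144 of 161 JMJD6 and 4150 of 4712 N-Myc promoter centres lay within 100 bp of a start in GENCODE 44 lifted to it.

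Peaks overlapping by at least 1 bp were called shared. Shares have exact (Clopper-Pearson) 95% intervals. Motifs were counted on both strands in GRCh37, 75-mers and 20-mers were counted in it by a rolling hash, and peaks were aligned to the member genes with blastn 2.17.0. Scripts were tested on simulated data. Python 3.11.15, numpy 2.4.6, SciPy 1.17.1, numba 0.67.0, pysam 0.24.0 and matplotlib 3.10.9 were used. Named genes were the members, flanking genes, pathway genes with a listed promoter or super-enhancer, and the 5 genes nearest to GBP2 and to GBP7 in peak numbers. Other genes from these lists were named after their values were seen. Members and lists were chosen with earlier results of these data known. Alternatives covered overlap, width, merging, gene models, motif window and word length. Some sequences and genes of these lists are not reported here.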

Additional observations from a re-analysis of the deposited data

How the results depend on the processing

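The lists hold no values per replicate, so no replicate could be left out. No paired analysis was possible because the lists pool the 3 replicates of each protein and no result comes from a test. Of 23 alternatives, 14 left a count within 1.5 times the value reported. Shared JMJD6 peaks rose from 11 to 19 when peaks were widened by 500 bp on each side, since many single peaks of 1 protein neighbour a peak of the other. Merging peaks closer than 1 kb turned the 24 JMJD6 peaks into 11, and merging below 5 kb gave 6 for JMJD6 and 8 for N-Myc (18 as listed). Peaks with an E-box were 5 with CACGTG anywhere, 1 within 100 bp of the centre and 27 with CANNTG. Peaks at least 90% unique fell from 30 with 75-mers to 19 with 36-mers. Members with a promoter were 1 by symbol and 2 by position, GBP2 and GBP4, the latter through a short transcript, and members with an enhancer were 1 by the names in the list and 0 by overlap with the gene, an alternative added after seeing the data. Canonical transcripts alone, also added then, gave 18 peaks inside a member in place of 19, and counting peaks with under 50% of their 20-mers at 100 or more copies gave 28. Depth is unknown, so a peak missing from a list may be one that fell short of the threshold in 1 replicate.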
